A study of Homo sapiens with 9 samples.

Results

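TRIM28 and 9 subunits of the NuRD complex, MTA1, MTA2, MTA3, HDAC2, CHD4, RBBP4, RBBP7, MBD3 and GATAD2A, were followed across SW480 colon cancer cells and 2 derivatives. These derivatives make BASP1, a gene that the paper describes as silenced in the parent line, from a plasmid or from its own promoter. The 10 genes form a list drawn up with earlier results of these data known; they were found by name among the 63677 Ensembl identifiers of the count files, and each matched 1 identifier and was measured in all 9 libraries. SW480 is an established line from a colorectal adenocarcinoma with a hypotriploid karyotype. SW480-B carries the BASP1 coding sequence on a pcDNA3 plasmid under the cytomegalovirus promoter, was selected with G418 and was grown from a single cell, so it stands for 1 clone. SW480-gRNA-B-all, labelled SW480-Bsg and so named here, makes BASP1 from its own promoter, driven by the nuclease-dead activator dCas9-VP64, the MS2-P65-HSF1 helper and a pool of guide RNAs brought in by lentivirus, and its dCas9-carrying parent was likewise cloned from a single cell. SW480-Bsg was selected with hygromycin B and puromycin. The reference line is unmodified SW480, without plasmid, dCas9 or drug selection. BASP1 thus cannot be told apart from cloning, selection and vector in either comparison with it. The derivatives also differ from each other in clone, vector, selecting drugs and activator parts, and between them the source of BASP1 cannot be told apart from these.

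TRIM28, also called KAP1, is a scaffold protein that KRAB zinc finger proteins bring to DNA, where it gathers the histone methyltransferase SETDB1, heterochromatin protein 1 and NuRD. NuRD joins an ATP-driven nucleosome remodeler (CHD3, CHD4 or CHD5) with a histone deacetylase (HDAC1 or HDAC2) in 1 complex. MTA proteins form its scaffold, RBBP proteins hold histones, MBD2 or MBD3 links the deacetylase to the remodeler, and GATAD2 proteins bridge to the remodeler. BASP1 itself is described as a transcriptional corepressor, which makes the supply of corepressor subunits in these lines of interest.

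The libraries held 25238831 to 29355669 counts on genes. BASP1, the gene the lines were made for, had 11.9, 8.03 and 0.691 CPM (the depth-scaled read count, with TMM library sizes) in the 3 SW480 libraries, 268, 268 and 250.3 CPM in SW480-B and 167, 303 and 300.1 CPM in SW480-Bsg, in the order of the replicate numbers. Every SW480 library thus held some BASP1 reads, most in replicate 1 and fewest in replicate 3. MYC had 800, 437 and 228 CPM in SW480, 401, 421 and 309 CPM in SW480-B and 289, 125 and 125 CPM in SW480-Bsg. It was not called in the main edgeR fit of any comparison, and other fits were not read for it. The paper reports MYC as lower in SW480-Bsg by Northern blot, RNA-Seq and qPCR, and at the protein level by immunoblot. Replicates 2 and 3 of SW480-Bsg differed far less than any other pair of replicates, with a mean chi-square of 3.34 per gene (1 degree of freedom, 13771 genes) against 91.2 to 337 for the others. The median was 0.905, against 12.0 to 44.1 for the others. The mean is above counting noise, but this cannot tell separate cultures from repeat libraries of the same RNA. The pair may thus be technical repeats. They were kept as separate libraries, and results are also given with the pair summed. SW480-B replicate 1 had the highest share of intronic bases (7.27%, against 3.5% to 5.57% in the other libraries). All 7 epithelial markers were at 1 CPM or more in each line, although CDX2 and VIL1 were called lower in SW480-Bsg, and VIL1 also in SW480-B. Further, 8 markers of other cell types summed to 4.61 to 8.18 CPM in SW480, 8.69 to 16.4 CPM in SW480-B and 13.4 to 20.5 CPM in SW480-Bsg; 1, 1 and 3 of them had 0 counts in the line, and COL1A1 was called higher in SW480-Bsg. The part of these markers in the results was not tested. Because these are bulk samples, a change in the share of cells of a kind and a change in RNA per cell cannot be told apart. Nothing says that replicates came from separate cultures, and p-values then measure only the spread between these libraries.

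TRIM28 was the one gene of the 10 that passed the test, and it passed only in SW480-Bsg against SW480. It fell by 0.95 on the log2 scale, to 436 ± 7.26 CPM from 839.8 ± 117 CPM (SD, n = 3 each). MTA1, RBBP7 and HDAC2 had lower values and MTA3 and MBD3 higher values in each SW480-Bsg library than in any SW480 library, without passing the test; 6 of the 10 thus had no overlap between these lines, against 38% of all genes tested. In SW480-B none of the 10 passed.

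**Figure D1:**
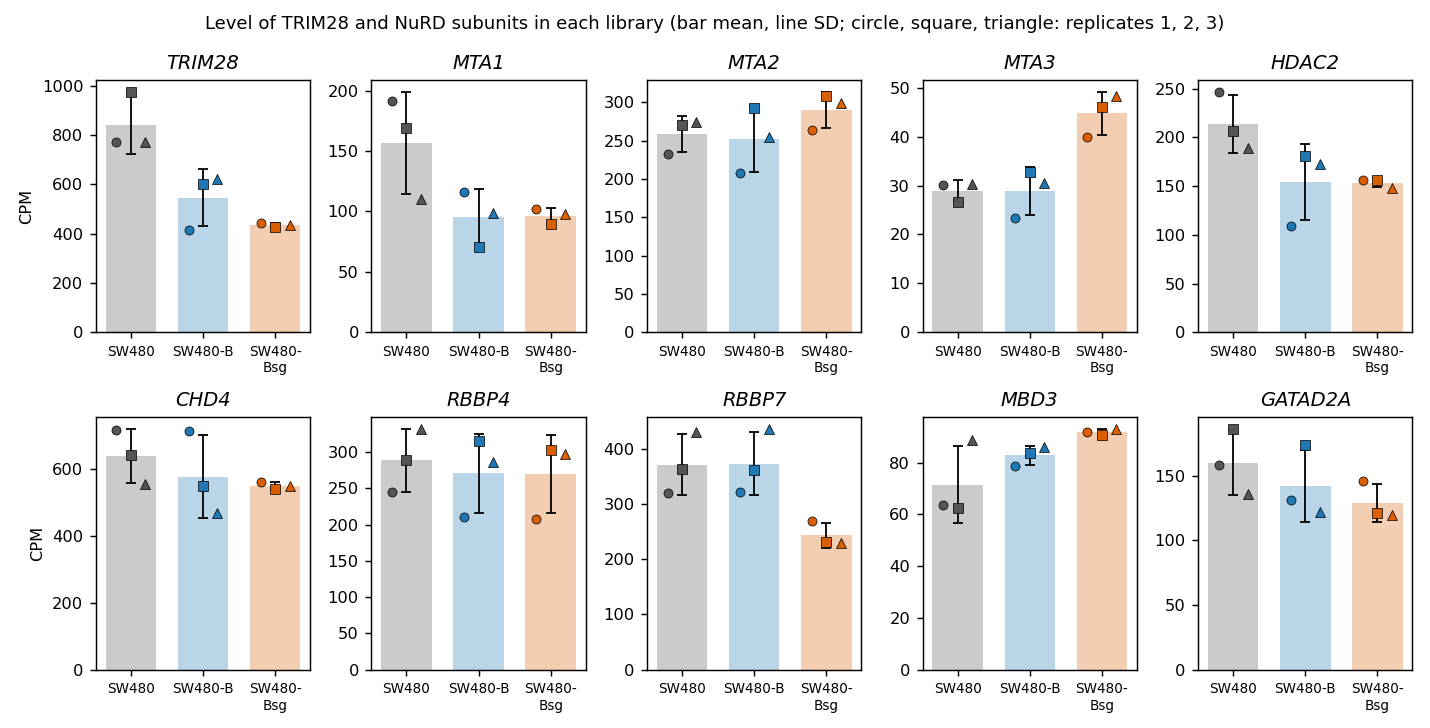
Level of each gene in CPM (vertical axis, starting at 0) in the 3 lines; bars are means, lines are SD over 3 libraries, and circles, squares and triangles are replicates 1, 2 and 3. TRIM28 lies between 429 and 443.5 CPM in SW480-Bsg and between 772 and 975 CPM in SW480.

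TRIM28 (ENSG00000130726) lies on chromosome 19 of GRCh37 from 59055431 to 59062089, near the end of the long arm. It had 772, 975 and 772 CPM in SW480, 414, 601 and 624 CPM in SW480-B and 443.5, 429 and 436 CPM in SW480-Bsg. Every library of either derivative was below every SW480 library, and SW480-B replicate 1 was the lowest of all. Against SW480, the log2 fold change in SW480-Bsg was -0.95 (95% interval -1.38 to -0.52, adjusted p = 0.029, from the quasi-likelihood test of edgeR, Benjamini-Hochberg adjusted), or 1.93-fold lower. A gene is called here where this adjusted p is under 0.05, and by that rule 7.8% of the 16100 genes tested were called, 5.52% as lower. The call depended on the libraries: it was kept without SW480 replicate 1 or 3, and lost without SW480 replicate 2 (-0.80, adjusted p = 0.10) or without any of the SW480-Bsg replicates (-0.95 to -0.93, adjusted p from 0.086 to 0.15), and with replicates 2 and 3 of SW480-Bsg summed (-0.93, adjusted p = 0.15). In SW480-B the log2 fold change was -0.59 (-1.20 to 0.03, adjusted p = 0.34), and -0.41 without SW480-B replicate 1. The derivatives were compared with each other directly, and TRIM28 was 0.33 lower on the log2 scale in SW480-Bsg than in SW480-B (-0.78 to 0.13, adjusted p = 0.36), so a difference between them was not shown.

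None of the scaffold subunits, the MTA genes, passed the test. MTA1 (ENSG00000182979; chromosome 14 of GRCh37, 105886157 to 105937066), the metastasis-associated founder of the family, had 191, 169 and 110.0 CPM in SW480, 116, 70.9 and 98.6 CPM in SW480-B and 102, 89.7 and 97.7 CPM in SW480-Bsg. Only the third SW480 library came near the derivatives, and it was below SW480-B replicate 1. The log2 fold change from SW480 was -0.71 (-1.24 to -0.18, adjusted p = 0.097 in edgeR's test) in SW480-Bsg and -0.68 (-1.34 to -0.02, adjusted p = 0.30) in SW480-B, and both comparisons share the SW480 libraries. Without SW480 replicate 3, MTA1 was called in SW480-Bsg (-0.88, adjusted p = 0.016). Between the derivatives it differed by 0.01 (-0.45 to 0.48) on the log2 scale.

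MTA2, the family's most abundant member per transcript length in these lines, had 232, 270 and 275 CPM in SW480, 207, 293 and 255 CPM in SW480-B and 263, 308 and 299 CPM in SW480-Bsg, and the lines overlapped. MTA3, the least abundant, had 30.0, 26.5 and 30.3 CPM in SW480, 23.4, 32.7 and 30.5 CPM in SW480-B and 39.8, 46.1 and 48.3 CPM in SW480-Bsg. Each SW480-Bsg library was thus above the other 6. The MTA3 log2 fold change was 0.62 (0.25 to 1.00, adjusted p = 0.058 in edgeR's test) against SW480 and 0.63 (0.21 to 1.05, adjusted p = 0.071) against SW480-B, just outside the threshold. Against SW480 it was called without SW480 replicate 3 (0.68, adjusted p = 0.04) and under DESeq2 (0.67, at an adjusted p of 0.01), but not with the 2 like libraries summed (0.60, adjusted p = 0.22).

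Of the summed MTA level per transcript length, MTA1 made up 45.2%, 39% and 28.8% in SW480, 36.2%, 19.6% and 28% in SW480-B and 27.8%, 22.4% and 24.3% in SW480-Bsg. MTA3 made up 3.22% to 4.18%, 3.84% to 4.78% and 5.7% to 6.33%. Each SW480-Bsg library thus had a larger MTA3 share and a smaller MTA1 share than any SW480 library. The sum of the 3 genes was 144 ± 9.69 CPM per kb in SW480, 120 ± 7.15 in SW480-B and 136 ± 6.57 in SW480-Bsg (SD, n = 3 each), and in SW480-Bsg (128, 140 and 140) it overlapped SW480 (133 to 151). No test was run on these shares.

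Among the enzymes, HDAC2, a deacetylase, had 247, 206 and 189 CPM in SW480, 109.5, 181 and 173 CPM in SW480-B and 156, 156 and 148 CPM in SW480-Bsg. Both derivatives lay below SW480 in every library, at log2 fold changes of -0.49 (-0.87 to -0.11, adjusted p = 0.10) and -0.44 (-1.02 to 0.14, adjusted p = 0.44) in SW480-Bsg and SW480-B by edgeR's test. With offsets for GC content and transcript length the first was 0.02 (adjusted p = 0.92), so the direction for HDAC2, whose 9737-base transcript is the longest of the 10, depended on that choice. CHD4, the main remodeler, had 716, 642 and 555 CPM in SW480, 711, 548 and 468 CPM in SW480-B and 560, 539 and 549 CPM in SW480-Bsg, with overlap between all lines and log2 fold changes of -0.22 and -0.11 from SW480.

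Of the histone-binding pair, RBBP4 had 246, 289 and 332 CPM in SW480, 211, 316 and 286 CPM in SW480-B and 207, 303 and 298 CPM in SW480-Bsg, and the lines overlapped. RBBP7, also known as RbAp46, had 320, 363 and 430 CPM in SW480, 322, 361 and 435 CPM in SW480-B and 269, 231 and 229 CPM in SW480-Bsg. Its level was thus alike in SW480 and SW480-B, replicate by replicate, and lower in each SW480-Bsg library. The log2 fold change was -0.62 (-1.04 to -0.19, adjusted p = 0.08 in edgeR's test) against SW480 and -0.62 (-1.03 to -0.21, adjusted p = 0.072) against SW480-B. In SW480-B it was 0.05 (-0.51 to 0.60) from SW480. RBBP7 overlaps TXLNG (73.6 CPM on average) on the opposite strand over 5237 bases, and whether the counting used strand is not given in the sources used here.

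MBD3, a paralog of the methyl-CpG binding protein MBD2, had 63.6, 62.3 and 88.6 CPM in SW480, 78.8, 83.9 and 85.9 CPM in SW480-B and 92.0, 90.8 and 92.9 CPM in SW480-Bsg. The log2 fold change was 0.36 (-0.06 to 0.77, adjusted p = 0.23 in edgeR's test) in SW480-Bsg, and the third SW480 library lay near the SW480-Bsg level: without it the value was larger and MBD3 was called (0.56, adjusted p = 0.036). GATAD2A had 158, 186 and 136 CPM in SW480, 131, 174 and 122 CPM in SW480-B and 146, 121 and 120.1 CPM in SW480-Bsg, and the lines overlapped.

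**Figure D2:**
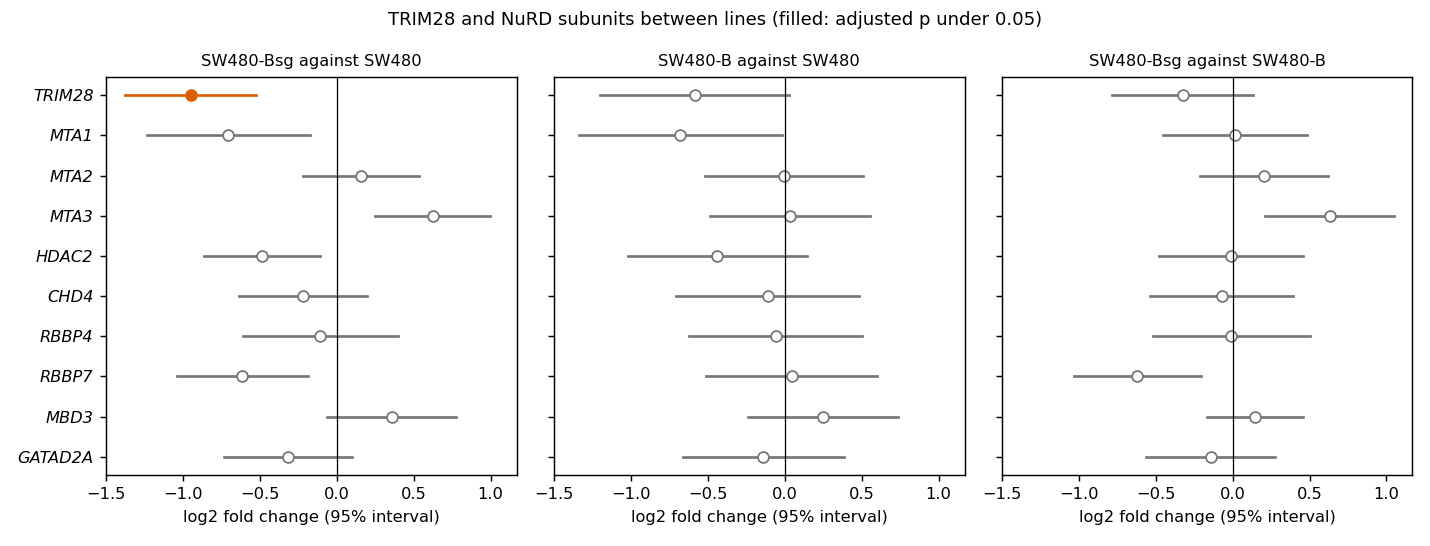
Log2 fold change of each gene (point) with its 95% interval (line) in the 3 pairs of lines, from edgeR. The filled point, TRIM28 in SW480-Bsg against SW480 at -0.95, is the only one with an adjusted p under 0.05; MTA3 and RBBP7 have intervals away from 0 in both panels that hold SW480-Bsg.

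As a set, 1 of the 10 was called in SW480-Bsg against SW480, 10 genes being too few to set this against the 7.8% of all genes. At an unadjusted p under 0.05, 5 of the 10 passed, against 28.4% of all genes tested. The median log2 fold change of the 10 was -0.27, and that of all genes -0.05. With a limit of 2-fold added, 6.55% of all genes and none of the 10 were called. In SW480-B against SW480, where 1.34% of 16106 genes were called, none of the 10 was called by edgeR or DESeq2, and 1 (MTA1) had an unadjusted p under 0.05, against 15.8% of all genes; the median was -0.09, and 2 (TRIM28 and HDAC2) had libraries that did not overlap, against 22.4%. Between the derivatives, where 8.76% of 15846 genes were called, none of the 10 was called by edgeR, 2 (MTA3 and RBBP7) had an unadjusted p under 0.05, against 24.4% of all genes, and DESeq2 called those 2. Libraries did not overlap for 3 (MTA3, RBBP7 and MBD3), against 30.4% of all genes.

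Ranked by mean CPM per kb of transcript in SW480, TRIM28 (249.7 ± 34.9, SD, n = 3 as for the others) was followed by RBBP7 (163 ± 24.3), CHD4 (98.2 ± 12.4), MTA2 (84.0 ± 7.60), MTA1 (54.6 ± 14.7), RBBP4 (36.6 ± 5.46), GATAD2A (28.0 ± 4.37), HDAC2 (22.0 ± 3.04), MBD3 (12.6 ± 2.61) and MTA3 (5.31 ± 0.383). CHD4 and MTA2 overlapped between libraries, as did each neighbouring pair from MTA1 to HDAC2, and the other neighbours did not. The order also depends on the canonical transcript length used for each gene. HDAC2, with its 9737-base transcript, ranked below MTA1 although its mean CPM in SW480 was higher (214 against 157). In SW480-B TRIM28 (162 ± 34.3 CPM per kb) and RBBP7 (163 ± 25.2) had the same level within their spread. In SW480-Bsg TRIM28 (130 ± 2.16 CPM per kb) and RBBP7 (107 ± 9.87) led again, and MTA2 (94.1 ± 7.66) stood above CHD4 (84.6 ± 1.62), with overlap.

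Most genes near TRIM28 and RBBP7 on the chromosome had negative fitted values in SW480-Bsg. Of the 122 other tested genes that start within 5 Mb of TRIM28, 94 (77%, against 53.3% of all genes tested) had a log2 fold change below 0 from SW480, with a median of -0.56, against -0.05 for all genes. Of these 122, 8 were called lower (6.56%, near the 5.52% of all genes) and 1 higher. TRIM28 minus that median was -0.39. In SW480-B against SW480, 83 of 118 neighbours were below 0 (70.3%, against 50.3% of all genes), with a median of -0.21, and TRIM28 minus it was -0.37. Between the derivatives, 84 of 118 were below 0 (71.2%, against 50.3%), with a median of -0.26, and TRIM28 minus it was -0.06. The neighbours did not follow the same libraries throughout: set against the 9-library mean, the median log2 level of the neighbours was 0.05 in SW480-Bsg replicate 1, where TRIM28 was at -0.39, and -0.40 and -0.38 in replicates 2 and 3, where TRIM28 was at -0.44 and -0.41. Their part in the result was not tested.

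Around RBBP7, at 16857406 to 16888485 on chromosome X of GRCh37, the neighbours were lower than RBBP7 itself. Of 39 tested genes within 5 Mb, 37 were below 0 in SW480-Bsg against SW480 and 12 were called lower (30.8%, against 5.52% of all genes), with a median log2 fold change of -0.89. RBBP7 was itself not called. RBBP7 minus that median was 0.27, so its sign turned. Against SW480-B, 36 of 38 neighbours were below 0, 13 were called lower (34.2%, against 5.73% of all genes), the median was -0.82, and RBBP7 minus the median was 0.20. In SW480-B against SW480, 20 of 40 were below 0 and the median was -0.01.

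For MBD3 (chromosome 19, 1573595 to 1592864), 37 of 171 neighbours were below 0 in SW480-Bsg against SW480, their median was 0.36, and MBD3 minus the median was -0.004. The 64 neighbours of MTA1 had a median of 0.09, which left MTA1 at -0.79, and the 49 neighbours of MTA3 had a median of -0.09, which left MTA3 at 0.71. In SW480-B against SW480 the neighbours of MTA1 had a median of -0.27, and MTA1 minus that was -0.41.

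NuRD is built from alternative subunits, and the balance within these pairs was read as the ratio of CPM per kb. CHD3, which takes the place of CHD4 in some NuRD complexes, had 16.0, 41.9 and 65.4 CPM in SW480, 83.1, 56.9 and 66.4 CPM in SW480-B and 188, 172 and 182 CPM in SW480-Bsg. The ratio of CHD3 to CHD4 was 0.0196 to 0.104 in SW480, 0.0914 to 0.125 in SW480-B and 0.28 to 0.295 in SW480-Bsg. CHD3 itself was called higher in SW480-Bsg against SW480 (log2 fold change 2.13, 1.04 to 3.22, adjusted p = 0.04, edgeR; called in 2 of 6 fits without 1 library, and not with the 2 like libraries summed, adjusted p = 0.12). Against SW480-B it was higher by 1.39 (0.97 to 1.81, adjusted p = 0.0044), and this call was kept in all 6 fits without 1 library and with the 2 like libraries summed (adjusted p = 0.022), though not with all 9 libraries in one fit (adjusted p = 0.085).

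The ratio of MBD3 to MBD2, which form separate NuRD complexes, was 0.804 to 1.76 in SW480, 1.76 to 2.12 in SW480-B and 2.32 to 2.6 in SW480-Bsg. MBD2 had 70.6, 54.4 and 44.9 CPM in SW480 and 31.6, 34.8 and 35.8 CPM in SW480-Bsg, a log2 fold change of -0.74 (-1.22 to -0.27, adjusted p = 0.067 in edgeR's test). The ratio of HDAC1 to HDAC2 was 2.98 to 3.59 in SW480, 3.39 to 5.61 in SW480-B and 4.69 to 5.89 in SW480-Bsg; HDAC2, its lower term, is the gene whose direction turned with the offsets for GC content and length. For RBBP4 to RBBP7 the ratio was 0.222 to 0.231 in SW480 and 0.223 to 0.379 in SW480-Bsg, with replicate 1 apart from the others. GATAD2A to GATAD2B ran from 3.93 to 4.17 in SW480 and 3.47 to 5.48 in SW480-Bsg, with overlap. Transcript length was that of the Ensembl canonical transcript, so a ratio is exact only where that isoform is the one in use. The length divides out of a change in the ratio between lines, while library effects of GC content or length do not, and the ratios were not adjusted for these.

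**Figure D3:**
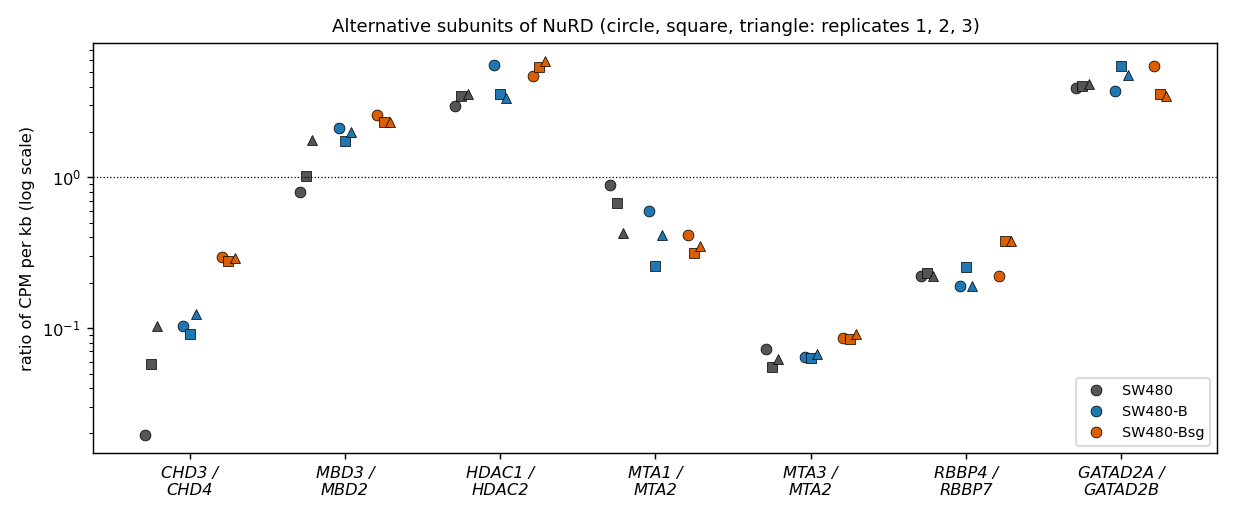
Ratio of CPM per kb between alternative NuRD subunits (vertical axis, log scale; the dotted line is equal level) in each library, coloured by line. The CHD3 to CHD4 ratio is 0.28 to 0.295 in SW480-Bsg and at most 0.125 in the other lines.

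Beyond the 10 genes, 74 genes of related corepressor lists were followed: other NuRD subunits, TRIM28 partners in silencing, its TIF1 paralogs, factors that recruit NuRD, and the SIN3, CoREST, NCoR/SMRT and PRC2 or CAF-1 complexes. In SW480-Bsg against SW480, 6 of the 71 tested were called (8.45%, against 7.8% of all genes), 1 higher and 5 lower. In SW480-B, 2 of 70 were called (2.86%, against 1.34%), both lower.

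In the TIF1 family, TRIM24, a bromodomain paralog of TRIM28, had 107, 104 and 64.0 CPM in SW480, 51.3, 59.0 and 51.1 CPM in SW480-B and 26.8, 33.6 and 30.6 CPM in SW480-Bsg. It fell by 1.60 on the log2 scale in SW480-Bsg (standard error 0.24, adjusted p = 0.016, edgeR), a call kept in 2 of 6 fits without 1 library and not with the 2 like libraries summed (adjusted p = 0.079), and in SW480-B its log2 fold change was -0.73 (adjusted p = 0.21). TRIM33 and TRIM66 were not called. The ratio of TRIM28 to TRIM24 per kb was 18.2 to 30.4 in SW480 and 32.2 to 41.7 in SW480-Bsg.

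The 18 tested TRIM28 silencing partners include SETDB1, the HP1 genes CBX1, CBX3 and CBX5, the HUSH complex and SUMO genes. None of the 18 was called against SW480 in either derivative in the main edgeR fit. Of the 18, 2 in SW480-Bsg and 1 in SW480-B had an unadjusted p under 0.05, against 28.4% and 15.8% of all genes. Their medians were -0.03 and -0.10. SETDB1 had a log2 fold change of -0.76 (-1.51 to -0.01, adjusted p = 0.17, edgeR) in SW480-Bsg. SETDB2 had the lowest value of the 18 there, at -1.37 (-2.15 to -0.58, adjusted p = 0.052, edgeR). SETDB2 was past the threshold in 4 of 9 fits with no library left out and in 1 of 6 fits without 1 library.

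Among factors that recruit NuRD, 3 of 11 were called in SW480-Bsg, all lower, against 5.52% of all genes, and 11 genes are few to set against that share. ZFPM1, or FOG1, a GATA cofactor, had 27.1, 23.9 and 13.8 CPM in SW480, 6.69, 5.49 and 6.33 CPM in SW480-B and 6.50, 6.41 and 6.65 CPM in SW480-Bsg. It was called in both derivatives, at log2 fold changes of -1.73 (standard error 0.29, adjusted p = 0.022, edgeR) in SW480-Bsg and -1.77 (standard error 0.33, adjusted p = 0.046) in SW480-B. BCL11A, a zinc finger repressor known from globin switching, had 15.7, 13.9 and 4.77 CPM in SW480, 4.83, 4.31 and 1.84 CPM in SW480-B and 1.36, 0.20 and 0.367 CPM in SW480-Bsg, and was called in the latter (-4.16, standard error 0.81, adjusted p = 0.032). SALL3, a spalt-family zinc finger gene, had 143 counts over the SW480 libraries, 0 over SW480-B and 2 over SW480-Bsg. It was called in both. From pooled counts it was at least 45.5-fold lower in SW480-B (taking 3 counts over the line as the limit that a count of 0 allows). In SW480-Bsg it was 70.7-fold lower (95% exact counting interval 19.2 to 589.8). Both bounds hold counting noise only and leave out the spread between libraries, which in SW480 had 50, 72 and 21 counts. ZFPM1, BCL11A and SALL3 were each called in 2 of the 6 fits of SW480-Bsg without 1 library. None of them was called with the 2 like libraries summed (adjusted p from 0.069 to 0.11, edgeR). In SW480-B, ZFPM1 was called in 1 of 6 fits without 1 library and 6 of 8 other fits (adjusted p up to 0.056), and SALL3 in 2 of 6 and 7 of 7.

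RCOR2, a CoREST scaffold, had 11.8, 5.41 and 3.38 CPM in SW480, 1.16, 0.321 and 0.671 CPM in SW480-B and 1.08, 1.60 and 1.04 CPM in SW480-Bsg. It was called in SW480-Bsg (log2 fold change -2.47, standard error 0.53, adjusted p = 0.038, edgeR; 2 of 6 fits without 1 library, and not with the 2 like libraries summed, adjusted p = 0.13) and in SW480-B the value was -3.21 on that scale (adjusted p = 0.066). None of the 13 SIN3, 6 NCoR/SMRT and 6 PRC2 or CAF-1 genes was called against SW480 in the main edgeR fit. At an unadjusted p under 0.05, 2, 3 and 2 of them passed in SW480-Bsg and 1, 0 and 1 in SW480-B. Of all genes, 28.4% and 15.8% did. The NCoR/SMRT gene TBL1XR1 was past the adjusted threshold in SW480-Bsg in 4 of 9 fits with no library left out. Without 1 library it passed in 1 of 6.

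**Figure D4:**
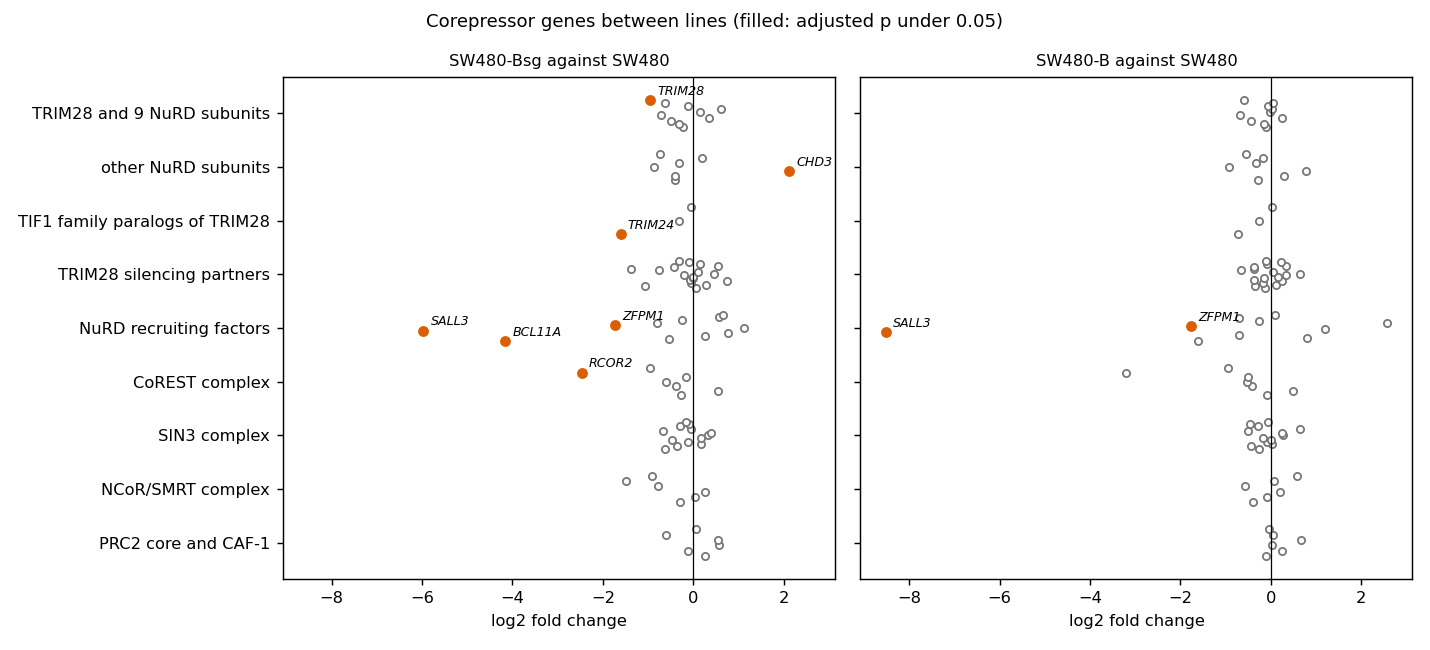
Log2 fold change from SW480 (horizontal axis) of each tested gene of 9 corepressor lists; filled points have an adjusted p under 0.05 and are named. Most points lie near 0, and the named genes other than CHD3 lie to the left; the fitted value of SALL3, with 0 or 2 counts in the derivatives, depends on the prior count and is no bound.

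By correlation of log2 CPM over the 9 libraries among 9898 genes with a mean of at least 10 CPM, the genes most like TRIM28 were STARD7 (r = 0.99), CHML (0.98) and SRPK1 (0.98). Those most like MTA1 were STARD10 (0.99), CHD7 (0.98) and RPAP2 (0.98). These are the top of many comparisons over 9 points in 3 clusters, so they are a description only. Among the 10 genes, the pair most alike was TRIM28 and HDAC2 (r = 0.83), and the pair most opposed was MTA1 and MBD3 (r = -0.84).

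Promoter sequences were read for 9 of the 10 genes, all except TRIM28, as the 250 bases before the start in RefSeq on GRCh38.p14. Searched were the E-box CACGTG, the core site of MYC and MAX, the GC box GGGCGG, the CCAAT box CCAAT and the TCF motif CTTTGAT, on both strands; none of these words lies within another. MTA1 is shown because its log2 fold change of -0.71 in SW480-Bsg, which did not pass the test, stood beside a median of 0.09 for its neighbours on the chromosome, and RBBP4, with overlapping levels in all lines, because it was the only one of the 9 with an E-box. Capitals mark the motifs, read in either orientation. The MTA1 window is chr14:105419577-105419826 on the plus strand, and the RBBP4 window is chr1:32650958-32651207 on the plus strand.
MTA1: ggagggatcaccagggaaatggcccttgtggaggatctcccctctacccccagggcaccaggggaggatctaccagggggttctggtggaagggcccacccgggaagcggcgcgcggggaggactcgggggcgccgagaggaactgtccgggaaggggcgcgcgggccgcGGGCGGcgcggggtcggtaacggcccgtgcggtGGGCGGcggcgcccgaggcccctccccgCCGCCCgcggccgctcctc
RBBP4: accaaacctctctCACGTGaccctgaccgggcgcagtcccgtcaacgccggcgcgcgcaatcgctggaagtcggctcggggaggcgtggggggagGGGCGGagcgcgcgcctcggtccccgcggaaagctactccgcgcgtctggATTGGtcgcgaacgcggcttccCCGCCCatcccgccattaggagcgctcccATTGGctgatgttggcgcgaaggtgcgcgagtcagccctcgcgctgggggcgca
The MTA1 window holds 3 GC boxes and none of the other motifs, and has 76.8% GC. The RBBP4 window holds 1 E-box, 2 GC boxes and 2 CCAAT boxes, and has 71.2% GC. Over 35116 promoters of the same length, 6.34% hold the E-box, 42.6% the GC box, 32% the CCAAT box and 2.26% the TCF motif, and among the 9 genes these were found in 1, 8, 4 and 0. A match is a word in the window and no measure of binding.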

How the data were processed

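Poly(A) RNA from 3 libraries per line (SW480, its clone SW480-B, and SW480-gRNA-B-all, here SW480-Bsg) was sequenced with a stranded kit in paired reads on a NovaSeq. The authors mapped reads to GRCh37 and deposited raw counts per Ensembl gene; the counter and its strand setting are not given in the sources used here. Deposited alignment metrics (percent and ratio values in the authors' Picard-style tables) were used for intronic bases. Identifiers were matched to symbols, positions and transcript lengths of GENCODE on GRCh37 (55665 of 63677, holding 99.36% of counts; 99 of 100 listed symbols). Rows that name no gene (5.2% to 9.9% without a feature and 3.1% to 3.4% ambiguous) were left out.

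Counts were tested with edgeR 4.0.16 in R 4.3.3 (filterByExpr with a minimum count of 10 and total of 15, TMM factors, robust quasi-likelihood fit), on the 6 libraries of each pair of lines, with Benjamini-Hochberg adjustment over all genes tested and a threshold of 0.05. The scripts were tested on simulated data. CPM used TMM library sizes. DESeq2 1.42.0, other scaling and filters, all 9 libraries, a replicate block, GC and length offsets and leaving out libraries were alternatives.

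The 10 genes and the wider lists were chosen with earlier results of these data known. Named were all 10 genes, up to 5 called genes per wider list, smallest p first, and the 3 genes most like TRIM28 and MTA1. Same-numbered libraries of SW480-B and SW480 deviated together (r = 0.29, 0.322 and 0.393). Those of SW480-Bsg did so for numbers 1 and 3 but not for number 2. Whether same-numbered libraries were prepared together is not given in the sources used here, and the main fits used no replicate block.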

Additional observations from a re-analysis of the deposited data

Results flagged for a closer look

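Of the wider corepressor lists, 9 of 70 tested genes (12.9%, against 8.76% of all genes) differed between SW480-Bsg and SW480-B in the direct test of edgeR, with Benjamini-Hochberg adjustment. CHD3 was higher in SW480-Bsg by 1.39 on the log2 scale (adjusted p = 0.0044), as given above. SALL2, a spalt-family gene, was higher by 1.52 (3.28 to 3.32 CPM in SW480-B and 5.89 to 11.6 CPM in SW480-Bsg, adjusted p = 0.022). ZNF512B, a NuRD-binding zinc finger gene, was higher by 1.30 (15.8 to 23.0 CPM and 38.8 to 58.2 CPM, adjusted p = 0.012).

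Lower in SW480-Bsg were TBL1XR1, an exchange factor of NCoR/SMRT (log2 fold change -1.46, 230.2 to 317 CPM in SW480-B and 94.9 to 108 CPM in SW480-Bsg, adjusted p = 0.0036), SETDB2 (-0.95, adjusted p = 0.033), TRIM24 (-0.83, adjusted p = 0.019), CDK2AP2, a small NuRD subunit (-0.66, adjusted p = 0.038), and EZH2, the PRC2 methyltransferase (-0.62, adjusted p = 0.045). ZFPM2 was also lower (-3.36, adjusted p = 0.043), at 6.43 to 17.6 CPM in SW480-B and 0.30 to 2.64 CPM in SW480-Bsg, where replicate 1 was the highest. Without 1 library, CHD3 and TBL1XR1 stayed called in 6 of 6 fits, ZNF512B in 5, TRIM24 in 3, SALL2, SETDB2 and ZFPM2 in 2, CDK2AP2 in 1 and EZH2 in 0. With replicates 2 and 3 of SW480-Bsg summed, CHD3 (adjusted p = 0.022), TBL1XR1 (adjusted p = 0.023) and ZNF512B (adjusted p = 0.037) were called and the other 6 were not (adjusted p from 0.091 to 0.17).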

How the results depend on the processing

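Without 1 library, genes called ran from 8 to 3519 in SW480-Bsg against SW480, from 0 to 925 in SW480-B against SW480 and from 421 to 2305 between the derivatives, and called members of the 10 ran from 0 to 4 in the first and were 0 in the others. Without SW480 replicate 2 the first count was 8, and without SW480-B replicate 1 or 2 the count in SW480-B was 0. Counts of genes called were 1930, 488 and 761 with all 9 libraries in one fit and 3125, 1133 and 2306 by DESeq2, for the comparisons in that order; 97 and 447 with replicates 2 and 3 of SW480-Bsg summed, for the comparisons with SW480 and SW480-B; and 738 with no filter and 143 with at least 1 CPM in at least 3 libraries, in SW480-B. DESeq2 called 2 of the 10 genes against SW480 (TRIM28 and MTA3) and 2 against SW480-B; none was called against SW480 with the 2 libraries summed or with a 2-fold limit. With the replicate number as a block in edgeR, 1347, 320 and 1978 genes were called. TRIM28 was called in SW480-Bsg against SW480 (adjusted p = 0.042), and 1 of the 10 (MTA3, 0.64, adjusted p = 0.049) was called against SW480-B. Same-number r was 0.235, -0.087 and 0.241 between SW480-Bsg and SW480-B, and 0.291, -0.0373 and 0.266 between SW480-Bsg and SW480. Replicate 2 of SW480-Bsg thus did not go with its number in either line. The block changed no call of the 10 in SW480-B against SW480.

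No called value turned its direction. With GC and length offsets the log2 fold change was 0.024 for HDAC2 and 0.26 for RBBP4 in SW480-Bsg, -0.045 for MTA3 and 0.096 for RBBP4 in SW480-B, and -0.056 for MTA1, 0.19 for HDAC2, 0.022 for CHD4 and 0.17 for RBBP4 between the derivatives, where HDAC2 was also 0.021 with the replicate block and 0.013 with the libraries summed, and RBBP4 0.00068 with no filter. MTA3 in SW480-B was -0.0026 with all 9 libraries. Without 1 library, values spanned 0 for RBBP4 (-0.20 to 0.058) in SW480-Bsg; in SW480-B for MTA2 (-0.13 to 0.12), MTA3 (-0.066 to 0.17), CHD4 (-0.29 to 0.011), RBBP4 (-0.19 to 0.098), RBBP7 (-0.095 to 0.16), SETDB2 (-0.63 to 0.032) and EZH2 (-0.034 to 0.20); and between the derivatives for MTA1 (-0.16 to 0.19), HDAC2 (-0.21 to 0.11), CHD4 (-0.20 to 0.11), RBBP4 (-0.16 to 0.17), GATAD2A (-0.24 to 0.018) and ZFPM1 (-0.0073 to 0.14). The causes were not tested. TRIM28 was lower than SW480 in every fit of either derivative.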
